A study of Mus musculus with 16 samples.

Results

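The genes described here are 35 enzymes and transporters that carry glucose from the cell surface through glycolysis to lactate or to acetyl-CoA, together with the enzymes that store and release glycogen. They were taken as a list of gene symbols covering glucose uptake, upper and lower glycolysis, the PFKFB regulators, lactate handling, glycogen synthesis, glycogen breakdown and the pyruvate dehydrogenase complex (PDH). A probe belonged to a gene if its RefSeq accession mapped to that symbol, and the brightest probe over all arrays stood for the gene. All 35 genes had a probe, out of 21154 genes with a named probe on the array, and all 35 were among the 14063 genes that passed the filter on dim probes. Each of the 35 was well above background on all 16 arrays, so none needed to be written as a bound.

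The hearts came from female mice, and RNA was taken from ventricular tissue. The 4 groups were lactating Npr1-/- mice after 2 weeks of lactation, lactating Npr1+/+ mice after the same 2 weeks, nulliparous Npr1-/- mice and nulliparous Npr1+/+ mice, with 4 mice in each and 1 array per mouse. Npr1 encodes the natriuretic peptide receptor with guanylyl cyclase activity. The labels give the genotype as knockout or wild-type and no age, strain, litter or way in which the allele was made. The Npr1 probe was well above background on 9 of 16 arrays and ran from -4.26 to -3.63 in Npr1-/- hearts and from -4.68 to -3.53 in Npr1+/+ hearts, so it does not check the genotype labels.

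Glycolysis splits glucose into pyruvate in the cytosol, and PDH converts pyruvate to acetyl-CoA in the mitochondrion. The adult heart burns mainly fatty acids and lactate and keeps glucose and glycogen as a reserve. Many of these steps have a muscle form and a non-muscle form encoded by separate genes, and striated muscle is known for high levels of the muscle forms.

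Values are log2 of the array's processed signal minus the log2 75th percentile of that array, so a value of 0 is a probe at the 75th percentile. Differences are on the log2 scale with the standard error (SE) of the limma fit, and a gene counts as called where the p, adjusted over all 14063 genes by the Benjamini-Hochberg method, is under 0.05. In RNA from ventricular tissue, fewer cells of a type and less RNA per cell cannot be told apart.

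One nulliparous Npr1-/- array, replicate 4, stood apart. On the first principal component of all tested genes, which held 53.6% of the variance, it lay at -14.5, while the lactating arrays ran from -41.9 to -27.6 and the other 7 nulliparous arrays from 39.3 to 46.9. The 75th percentile of the unscaled signal over probes was 278 to 347 on the lactating arrays, 284 on nulliparous Npr1-/- replicate 4 and 165 to 221 on the other nulliparous arrays. Replicate 4 was the highest of its group for 12 of the 15 genes that were called higher in lactating Npr1-/- hearts. For these 15 it lay, at the median, 0.707 of the way from the mean of replicates 1 to 3 to the lactating mean. The part of the signal level in the results was not tested. Without replicate 4 all 15 were still called, with a larger rise in all but Pfkp, and the values without it are given for several genes below. The cardiomyocyte markers (Myh6, Actc1, Tnnt2, Tnni3, Ryr2, Myl2, Pln) were all well above background, and of the 8 fast skeletal muscle markers Myh1, Myh4 and Actn3 were above background on 0 of 16 arrays, Myh2 on 1, Tnnt3 on 13, Mylpf on 14 and Tnni2 and Pvalb on 16.

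Glucose and glycogen genes were more often higher than lower in lactating hearts of both genotypes. In Npr1-/- hearts 15 of 35 rose (42.9%) and 4 fell (11.4%), against a background of 25.5% of all tested genes called higher and 18.6% called lower. In Npr1+/+ hearts 19 of 35 rose (54.3%) and 0 fell, against 31.8% higher and 18.5% lower over all genes, with 1 of the 35 lower at an unadjusted p under 0.05 (limma). At that unadjusted threshold 2969 of all 14063 genes were lower. All 15 genes that rose in Npr1-/- hearts also rose in Npr1+/+ hearts. The median difference over the 35 was 0.15 in Npr1-/- hearts and 0.31 in Npr1+/+ hearts, and over all genes it was 0.06 and 0.10 in the same genotypes.

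Array by array, 12 of the 35 had every lactating Npr1-/- array above every nulliparous Npr1-/- array and 3 had every one below, where 19% of all genes lay above and 14.1% below. In Npr1+/+ hearts 17 lay above and 0 below, where 30.4% of all genes lay above and 17% below. Without nulliparous Npr1-/- replicate 4, 17 genes were called higher and 5 lower in Npr1-/- hearts: Tpi1 and Dlat joined the rises, Aldoa and Gapdh joined the falls (both turn positive with quantile normalization), and Phka1 was no longer called. Of the 4 falls, Pfkfb1 was called under every scaling tried (the array's median, normexp and quantile), while those of Slc2a4, Eno3 and Phka1 were not. Without replicate 4 the median over the 35 was 0.21, and of all 14063 genes 4305 were called higher and 3188 lower in Npr1-/- hearts. The plot of lactation changes by step shows both genotypes side by side.

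**Figure D1:**
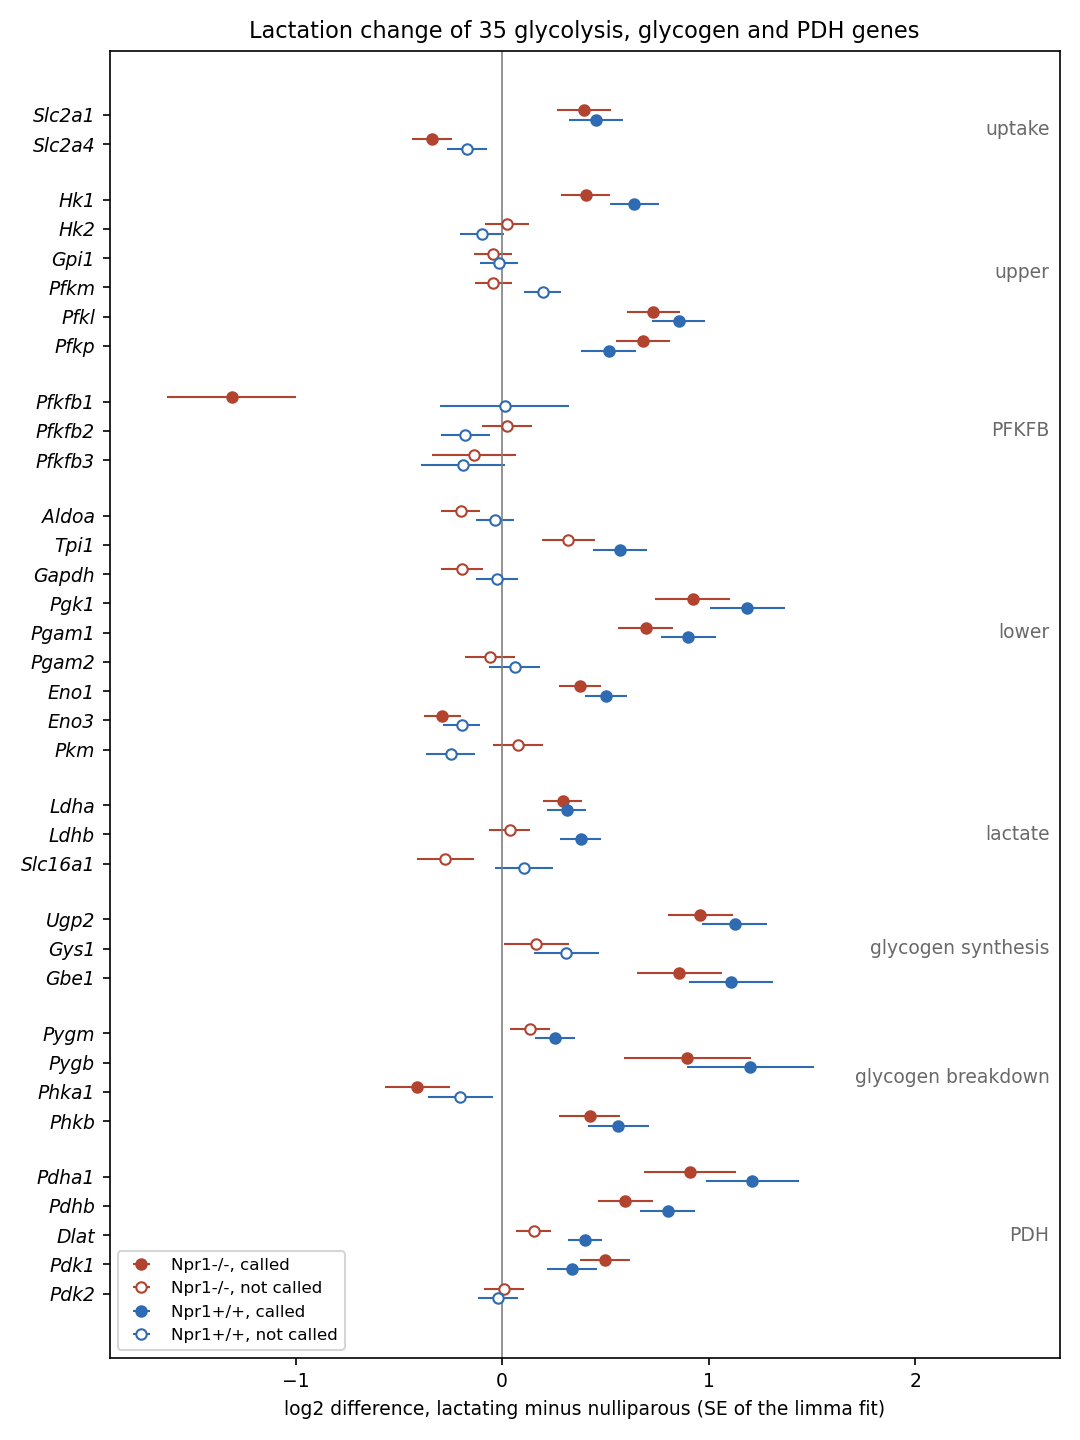
Log2 difference, lactating minus nulliparous, of the 35 genes in Npr1-/- (red) and Npr1+/+ (blue) hearts, grouped by step; bars are the SE of the limma fit and filled points are called genes. Pgk1, Ugp2, Gbe1, Pygb and Pdha1 lie farthest right in both genotypes, and Pfkfb1 in Npr1-/- hearts lies farthest left.

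The sequences of 5 promoters are shown because they belong to strong risers (Pgk1, Pgam1, Pygb) and to the muscle partners of 2 of them (Pgam2, Pygm), whose change was smaller in both genotypes. Each runs 5′ to 3′ on the gene's strand, from 250 bases before the annotated start to 50 after it, and was taken from RefSeq on build GRCm38.p6. Capitals mark ACGTG or its reverse complement CACGT, letters that occur in hypoxia response elements and in E-boxes. Pgk1 lies at chrX:106186850-106187149 on the plus strand, Pgam1 at chr19:41911621-41911920 on the plus strand, Pgam2 at chr11:5803747-5804046 on the minus strand, Pygb at chr2:150786546-150786845 on the plus strand and Pygm at chr19:6384158-6384457 on the plus strand.
Pgk1: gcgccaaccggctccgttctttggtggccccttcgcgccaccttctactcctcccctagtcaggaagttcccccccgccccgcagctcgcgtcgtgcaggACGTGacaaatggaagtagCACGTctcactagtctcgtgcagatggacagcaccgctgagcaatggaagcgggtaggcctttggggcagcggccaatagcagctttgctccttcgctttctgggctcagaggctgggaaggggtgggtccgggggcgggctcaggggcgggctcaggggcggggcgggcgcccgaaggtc
Pgam1: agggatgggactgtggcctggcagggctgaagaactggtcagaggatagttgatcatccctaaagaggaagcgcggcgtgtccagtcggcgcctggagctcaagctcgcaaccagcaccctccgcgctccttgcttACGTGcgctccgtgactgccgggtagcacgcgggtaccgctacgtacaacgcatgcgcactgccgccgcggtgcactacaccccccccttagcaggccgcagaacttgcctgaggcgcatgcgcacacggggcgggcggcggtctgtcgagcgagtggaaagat
Pgam2: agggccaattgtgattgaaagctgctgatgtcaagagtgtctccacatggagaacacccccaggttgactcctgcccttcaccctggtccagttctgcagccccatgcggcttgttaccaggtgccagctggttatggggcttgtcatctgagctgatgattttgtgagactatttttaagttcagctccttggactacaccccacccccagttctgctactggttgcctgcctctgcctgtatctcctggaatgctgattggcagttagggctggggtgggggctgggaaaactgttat
Pygb: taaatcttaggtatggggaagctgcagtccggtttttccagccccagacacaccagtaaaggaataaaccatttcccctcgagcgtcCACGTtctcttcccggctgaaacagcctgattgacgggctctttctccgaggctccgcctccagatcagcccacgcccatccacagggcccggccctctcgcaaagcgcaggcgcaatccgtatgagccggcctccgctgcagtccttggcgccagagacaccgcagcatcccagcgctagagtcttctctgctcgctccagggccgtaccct
Pygm: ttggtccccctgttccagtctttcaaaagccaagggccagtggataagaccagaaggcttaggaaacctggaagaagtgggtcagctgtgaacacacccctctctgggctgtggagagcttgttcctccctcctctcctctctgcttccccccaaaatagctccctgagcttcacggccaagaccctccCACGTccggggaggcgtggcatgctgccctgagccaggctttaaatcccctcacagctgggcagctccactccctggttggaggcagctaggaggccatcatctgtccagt

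These letters stood 2 times in the Pgk1 promoter, 1 time in each of Pgam1, Pygb and Pygm, and 0 times in Pgam2. Ugp2, Gbe1 and Pdha1 rose more than Pgam1 in both genotypes and are not shown. The letters stood 0 times in the promoters of Gbe1 and Pdha1, and 1 time in one Ugp2 promoter and 0 times in the other. Over the 34 genes with a promoter sequence (Slc2a4 was not matched), 18 had them in at least 1 promoter, and 22 of their 53 promoters held them (41.5%), where 19.6% of all 32851 promoters did. Of the 15 genes that rose in both genotypes 8 had them, and of the other 19 genes 10 had them, so the share was 53.3% in the risers and 52.6% in the rest. The half-site AAGGTCA (or TGACCTT), bound by estrogen-related receptors, stood in 3 of the 53 promoters (5.66%), near the 4.72% of all promoters. The 2 motifs overlapped in 0 of the 53 promoters. A match is a stretch of letters and not a bound site.

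Glucose uptake split by transporter. Slc2a1, the basal glucose transporter GLUT1, rose in both genotypes, and Slc2a4, the insulin-responsive transporter GLUT4 of muscle and fat, fell in Npr1-/- hearts under the main scaling. Slc2a1 measured 2.09, 2.36, 2.26 and 2.11 in lactating Npr1-/- hearts, 2.56, 2.49, 2.06 and 2.21 in lactating Npr1+/+ hearts, 1.50, 1.81, 1.85 and 2.07 in nulliparous Npr1-/- hearts and 1.85, 1.94, 1.97 and 1.73 in nulliparous Npr1+/+ hearts. Every lactating array lay above every nulliparous array of its genotype, narrowly so in Npr1-/- hearts. The difference was 0.40 ± 0.13 (adjusted p = 0.0237) in Npr1-/- hearts, 0.49 ± 0.13 without replicate 4, and 0.46 ± 0.13 (adjusted p = 0.00974) in Npr1+/+ hearts (limma).

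Slc2a4 measured 7.87, 7.56, 7.76 and 7.63 in lactating Npr1-/- hearts, 7.97, 7.76, 7.78 and 7.74 in lactating Npr1+/+ hearts, 8.01, 8.20, 8.11 and 7.85 in nulliparous Npr1-/- hearts and 8.04, 8.13, 7.90 and 7.88 in nulliparous Npr1+/+ hearts. In both genotypes the lactating and nulliparous arrays overlapped. It fell by 0.34 ± 0.10 on the log2 scale in Npr1-/- hearts (limma adjusted p = 0.013), and the difference of -0.17 ± 0.10 (adjusted p = 0.165) in Npr1+/+ hearts was not called. Centred on the array's median, the Npr1-/- difference was -0.16 (adjusted p = 0.238, limma). GLUT4 is also a fat-cell gene. Of the 4 tested adipocyte markers, Cidec (-2.31) and Plin1 (-1.20) fell in lactating Npr1-/- hearts, and Adipoq (1.15) rose in lactating Npr1+/+ hearts. Cidec and Plin1 were well above background on 0 and 1 of the 4 lactating Npr1-/- arrays, so the sizes of their falls are bounds. The summed scaled signal of the adipocyte list, in which Lep was above background on 0 arrays, was 197 to 254 in lactating Npr1-/- hearts, 183 to 299 in lactating Npr1+/+ hearts, 244 to 313 in nulliparous Npr1-/- hearts and 217 to 256 in nulliparous Npr1+/+ hearts. Nearly all of this sum was Fabp4, at 7.51 to 8.29 on the log2 scale. Adipoq, Plin1 and Cidec were at or below -0.39 on every array, so the sum does not show their changes. The part of fat cells in the Slc2a4 change was not tested.

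In upper glycolysis 3 of 6 genes rose in both genotypes, namely Hk1, Pfkl and Pfkp. Hk1 encodes the hexokinase found in most tissues, and Pfkl and Pfkp encode the liver and platelet forms of phosphofructokinase, the main control point of the pathway. Pfkl measured 2.98, 3.08, 3.19 and 3.21 in lactating Npr1-/- hearts, 3.05, 2.92, 3.20 and 3.00 in lactating Npr1+/+ hearts, 2.36, 2.37, 2.05 and 2.75 in nulliparous Npr1-/- hearts and 2.02, 2.16, 2.17 and 2.40 in nulliparous Npr1+/+ hearts. All 8 lactating arrays lay above all 8 nulliparous arrays, and the difference was 0.73 ± 0.13 (adjusted p = 0.00104) in Npr1-/- hearts and 0.86 ± 0.13 (adjusted p = 0.0002) in Npr1+/+ hearts (limma).

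Pfkp measured 2.78, 2.78, 2.43 and 2.91 in lactating Npr1-/- hearts, 2.20, 2.61, 2.14 and 2.15 in lactating Npr1+/+ hearts, 2.17, 2.01, 2.12 and 1.88 in nulliparous Npr1-/- hearts and 1.61, 1.90, 1.60 and 1.93 in nulliparous Npr1+/+ hearts, with lactating above nulliparous in each genotype. It rose by 0.68 ± 0.13 (adjusted p = 0.00158) in Npr1-/- hearts and 0.52 ± 0.13 (adjusted p = 0.00533) in Npr1+/+ hearts (limma). Hk1 rose by 0.41 ± 0.12 (adjusted p = 0.0132) in Npr1-/- hearts and 0.64 ± 0.12 (adjusted p = 0.000636) in Npr1+/+ hearts (limma). The muscle hexokinase Hk2 differed by 0.02 in Npr1-/- hearts and -0.10 in Npr1+/+ hearts, glucose phosphate isomerase Gpi1 by -0.04 and -0.01 in the same genotypes, and muscle phosphofructokinase Pfkm by -0.04 and 0.20. None of these was called.

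The PFKFB enzymes make and break fructose 2,6-bisphosphate, the activator of phosphofructokinase. Pfkfb1, known as the liver and skeletal muscle form, showed the widest change of the 35 genes and moved in Npr1-/- hearts. It measured 1.47, 0.75, 1.65 and 0.99 in lactating Npr1-/- hearts, 2.98, 2.22, 1.53 and 1.79 in lactating Npr1+/+ hearts, 2.50, 2.03, 2.32 and 3.25 in nulliparous Npr1-/- hearts and 1.92, 2.07, 2.48 and 2.00 in nulliparous Npr1+/+ hearts. All 4 lactating Npr1-/- arrays lay below all 4 nulliparous Npr1-/- arrays, while the Npr1+/+ groups overlapped.

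Pfkfb1 fell by 1.31 ± 0.31 on the log2 scale in Npr1-/- hearts (2.48-fold lower, limma adjusted p = 0.00448) and differed by 0.01 ± 0.31 (adjusted p = 0.978) in Npr1+/+ hearts. Without nulliparous Npr1-/- replicate 4, the highest array, the difference was -1.07 ± 0.30. The difference between the 2 genotypes' changes was -1.32 ± 0.44 (adjusted p = 0.648) and was not called (limma). The heart form Pfkfb2 differed by 0.02 in Npr1-/- hearts and -0.18 in Npr1+/+ hearts, and the inducible form Pfkfb3 by -0.14 and -0.19, neither called.

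Lower glycolysis held both genes that rose and genes that did not pass the test. Of its 9 genes, Pgk1, Pgam1 and Eno1 rose in both genotypes, Eno3 fell in Npr1-/- hearts and Tpi1 rose in Npr1+/+ hearts. Pgk1, phosphoglycerate kinase, which makes the first ATP of the pathway, measured 7.02, 7.04, 6.98 and 6.95 in lactating Npr1-/- hearts, 7.06, 6.91, 7.02 and 6.81 in lactating Npr1+/+ hearts, 5.97, 6.02, 5.52 and 6.77 in nulliparous Npr1-/- hearts and 5.86, 5.81, 5.63 and 5.76 in nulliparous Npr1+/+ hearts. The lactating arrays lay between 6.81 and 7.06, above every nulliparous array, and nulliparous Npr1-/- replicate 4 came close at 6.77.

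Pgk1 rose by 0.92 ± 0.18 (adjusted p = 0.00167) in Npr1-/- hearts (1.9-fold) and by 1.19 ± 0.18 (adjusted p = 0.000219) in Npr1+/+ hearts (2.28-fold, limma), and by 1.16 ± 0.11 in Npr1-/- hearts without replicate 4. Pgam1, the non-muscle phosphoglycerate mutase, measured 4.89, 5.14, 5.07 and 5.06 in lactating Npr1-/- hearts, 5.35, 4.83, 5.24 and 4.98 in lactating Npr1+/+ hearts, 4.49, 4.33, 3.99 and 4.56 in nulliparous Npr1-/- hearts and 4.20, 4.12, 4.12 and 4.36 in nulliparous Npr1+/+ hearts. All lactating arrays were above all nulliparous arrays. It rose by 0.70 ± 0.13 (adjusted p = 0.00146) in Npr1-/- hearts and 0.90 ± 0.13 (adjusted p = 0.000186) in Npr1+/+ hearts (limma).

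Eno1, the enolase of most tissues, rose by 0.38 ± 0.10 (adjusted p = 0.00866) in Npr1-/- hearts, 0.45 ± 0.09 without replicate 4, and 0.50 ± 0.10 (adjusted p = 0.00112) in Npr1+/+ hearts (limma). Eno3, the muscle enolase, measured 9.12, 9.06, 9.02 and 9.04 in lactating Npr1-/- hearts, 9.24, 9.13, 9.11 and 9.15 in lactating Npr1+/+ hearts, 9.42, 9.48, 9.29 and 9.21 in nulliparous Npr1-/- hearts and 9.51, 9.47, 9.15 and 9.27 in nulliparous Npr1+/+ hearts. Every lactating Npr1-/- array lay below every nulliparous Npr1-/- array, and the Npr1+/+ groups overlapped. Eno3 fell by 0.29 ± 0.09 in Npr1-/- hearts (limma adjusted p = 0.0174) and differed by -0.20 ± 0.09 (adjusted p = 0.0817) in Npr1+/+ hearts. The Npr1-/- difference was -0.11 with median centring (adjusted p = 0.397), -0.20 with normexp (adjusted p = 0.113) and -0.06 with quantile normalization (limma adjusted p = 0.679).

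Tpi1, triose phosphate isomerase, differed by 0.32 ± 0.13 (adjusted p = 0.0571) in Npr1-/- hearts and rose by 0.57 ± 0.13 (adjusted p = 0.00243) in Npr1+/+ hearts (limma). The muscle mutase Pgam2 differed by -0.06 in Npr1-/- hearts and 0.06 in Npr1+/+ hearts, and pyruvate kinase Pkm by 0.08 and -0.25, neither called. Aldolase Aldoa, which splits the 6-carbon sugar, differed by -0.20 in Npr1-/- hearts and -0.03 in Npr1+/+ hearts. Its difference turned positive with quantile normalization, at 0.27 in Npr1-/- hearts and 0.32 in Npr1+/+ hearts, and was then called in both.

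**Figure D2:**
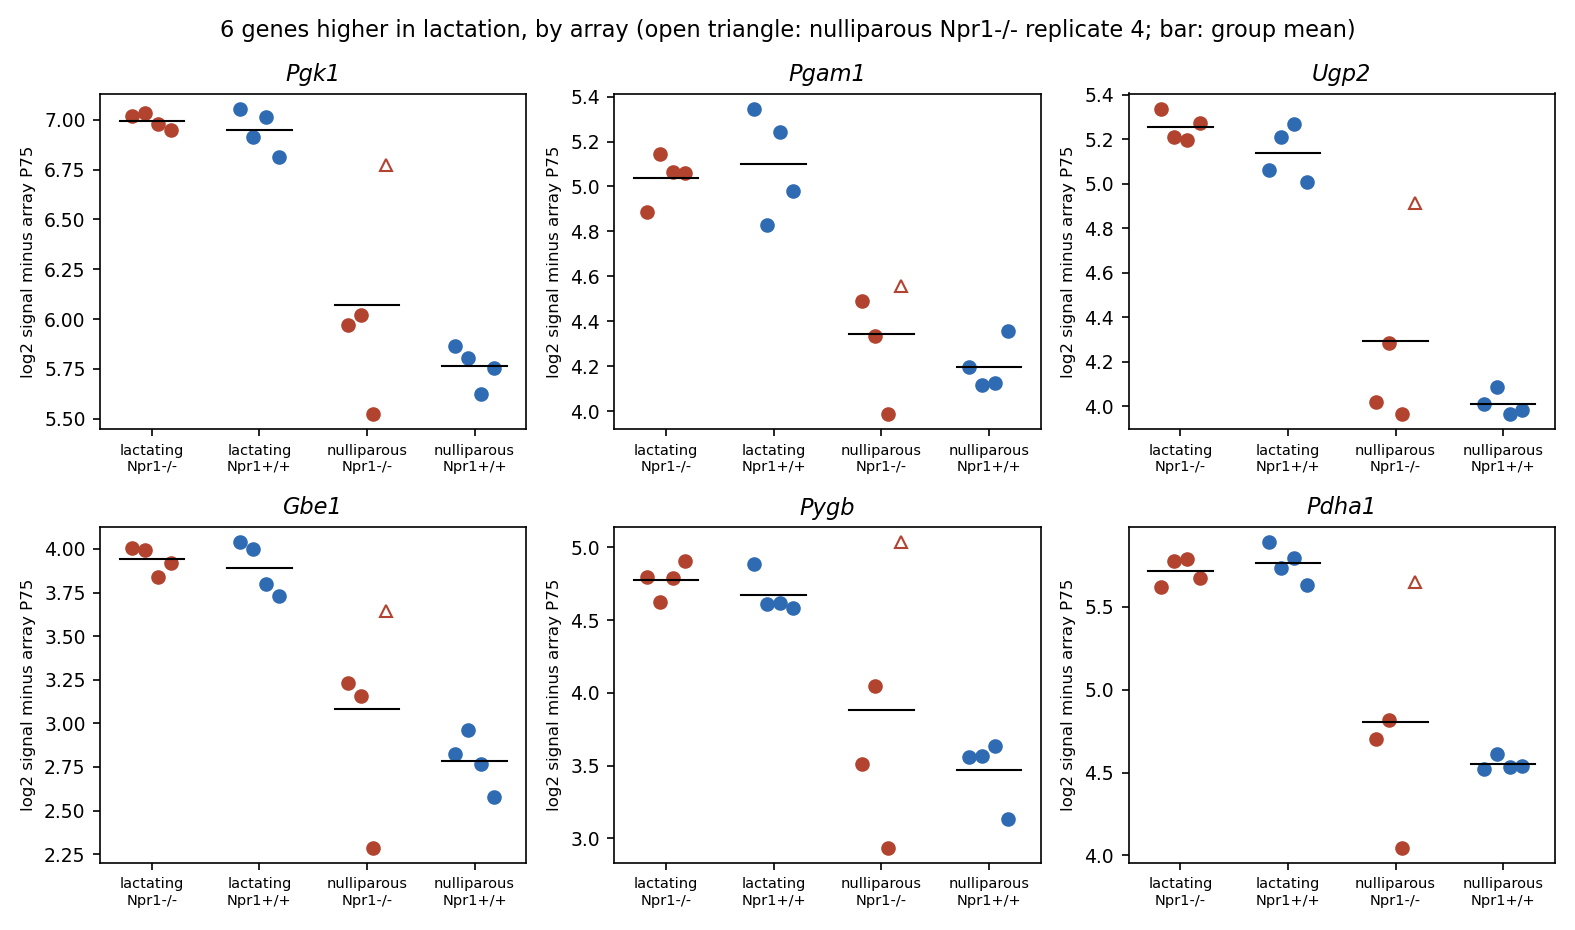
Scaled log2 signal (0 is the 75th percentile) on every array for Pgk1, Pgam1, Ugp2, Gbe1, Pygb and Pdha1, in lactating Npr1-/-, lactating Npr1+/+, nulliparous Npr1-/- and nulliparous Npr1+/+ hearts; bars are group means and the open triangle is nulliparous Npr1-/- replicate 4. The triangle lies above the other 3 arrays of its group in all 6 panels, and for Pygb at 5.04 it is above every lactating array.

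Among the lactate genes, Ldha, the lactate dehydrogenase subunit of muscle, rose at its brightest probe in both genotypes, by 0.29 ± 0.10 (adjusted p = 0.0233) in Npr1-/- hearts and 0.31 ± 0.10 (adjusted p = 0.0144) in Npr1+/+ hearts (limma). Ldhb, the heart subunit, measured 8.91, 8.93, 8.78 and 8.75 in lactating Npr1-/- hearts, 9.25, 8.89, 8.94 and 8.88 in lactating Npr1+/+ hearts, 8.78, 8.90, 8.66 and 8.88 in nulliparous Npr1-/- hearts and 8.70, 8.75, 8.50 and 8.49 in nulliparous Npr1+/+ hearts. The Npr1-/- groups overlapped and the Npr1+/+ groups did not. Ldhb differed by 0.04 ± 0.10 (adjusted p = 0.779) in Npr1-/- hearts and rose by 0.38 ± 0.10 (adjusted p = 0.00566) in Npr1+/+ hearts (limma). Slc16a1, the monocarboxylate transporter MCT1, was not called in either, at -0.28 in Npr1-/- hearts and 0.11 in Npr1+/+ hearts.

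Glycogen synthesis rose at 2 of its 3 genes. Ugp2 makes UDP-glucose, the donor of glucose units, and Gbe1 is the branching enzyme. Ugp2 measured 5.34, 5.21, 5.20 and 5.27 in lactating Npr1-/- hearts, 5.06, 5.21, 5.27 and 5.01 in lactating Npr1+/+ hearts, 4.02, 4.28, 3.96 and 4.91 in nulliparous Npr1-/- hearts and 4.01, 4.09, 3.97 and 3.98 in nulliparous Npr1+/+ hearts. All 8 lactating arrays were above all 8 nulliparous arrays, with nulliparous Npr1-/- replicate 4 nearest to them.

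Ugp2 rose by 0.96 ± 0.16 (adjusted p = 0.000745) in Npr1-/- hearts (1.95-fold), 1.17 ± 0.09 without replicate 4, and 1.13 ± 0.16 (adjusted p = 0.000133) in Npr1+/+ hearts (2.18-fold, limma). Gbe1 measured 4.00, 3.99, 3.84 and 3.92 in lactating Npr1-/- hearts, 4.04, 4.00, 3.80 and 3.73 in lactating Npr1+/+ hearts, 3.23, 3.16, 2.29 and 3.65 in nulliparous Npr1-/- hearts and 2.83, 2.96, 2.77 and 2.58 in nulliparous Npr1+/+ hearts. It too was higher on every lactating than on every nulliparous array, and rose by 0.86 ± 0.21 (adjusted p = 0.00461) in Npr1-/- hearts, 1.05 ± 0.18 without replicate 4, and 1.11 ± 0.21 (adjusted p = 0.000657) in Npr1+/+ hearts (limma). The muscle glycogen synthase Gys1, which builds the chain itself, differed by 0.17 ± 0.16 (adjusted p = 0.413) in Npr1-/- hearts and 0.31 ± 0.16 (adjusted p = 0.116) in Npr1+/+ hearts and was not called.

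Glycogen breakdown moved unevenly. Pygb, the brain form of glycogen phosphorylase, measured 4.79, 4.63, 4.79 and 4.91 in lactating Npr1-/- hearts, 4.89, 4.61, 4.62 and 4.58 in lactating Npr1+/+ hearts, 3.51, 4.05, 2.94 and 5.04 in nulliparous Npr1-/- hearts and 3.56, 3.57, 3.64 and 3.13 in nulliparous Npr1+/+ hearts. The 4 lactating Npr1+/+ arrays lay above the 4 nulliparous Npr1+/+ arrays, but nulliparous Npr1-/- replicate 4 was the highest array of all. Pygb rose by 0.90 ± 0.31 (adjusted p = 0.0286) in Npr1-/- hearts, 1.28 ± 0.20 without replicate 4, and 1.20 ± 0.31 (adjusted p = 0.00507) in Npr1+/+ hearts (limma).

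Pygm, the muscle phosphorylase, differed by 0.14 ± 0.10 (adjusted p = 0.265) in Npr1-/- hearts and rose by 0.26 ± 0.10 (adjusted p = 0.0391) in Npr1+/+ hearts (limma). Phkb, the beta subunit of the phosphorylase kinase that switches phosphorylase on, rose at its brighter probe by 0.42 ± 0.15 (adjusted p = 0.0315) in Npr1-/- hearts, 0.60 ± 0.11 without replicate 4, and 0.56 ± 0.15 (adjusted p = 0.00617) in Npr1+/+ hearts. Phka1, its muscle alpha subunit, measured 2.58, 2.59, 2.83 and 2.77 in lactating Npr1-/- hearts, 2.61, 2.98, 2.88 and 3.39 in lactating Npr1+/+ hearts, 2.95, 3.17, 3.01 and 3.27 in nulliparous Npr1-/- hearts and 3.03, 2.93, 3.18 and 3.53 in nulliparous Npr1+/+ hearts. All lactating Npr1-/- arrays lay below all nulliparous Npr1-/- arrays. It fell by 0.41 ± 0.16 in Npr1-/- hearts (limma adjusted p = 0.0465, 0.0948 without nulliparous Npr1-/- replicate 4) and differed by -0.20 ± 0.16 (adjusted p = 0.302) in Npr1+/+ hearts.

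At the entry to the mitochondrion 3 of 5 PDH genes rose in Npr1-/- hearts and 4 of 5 in Npr1+/+ hearts. Pdha1 and Pdhb encode the alpha and beta subunits of E1, the decarboxylase of the complex. Pdha1 measured 5.62, 5.78, 5.79 and 5.67 in lactating Npr1-/- hearts, 5.89, 5.74, 5.79 and 5.63 in lactating Npr1+/+ hearts, 4.70, 4.82, 4.05 and 5.65 in nulliparous Npr1-/- hearts and 4.52, 4.61, 4.53 and 4.54 in nulliparous Npr1+/+ hearts. Lactating arrays lay above nulliparous arrays except nulliparous Npr1-/- replicate 4, which at 5.65 fell among them.

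Pdha1 rose by 0.91 ± 0.22 (adjusted p = 0.00528) in Npr1-/- hearts, 1.19 ± 0.14 without replicate 4, and 1.21 ± 0.22 (adjusted p = 0.000628) in Npr1+/+ hearts (2.32-fold, limma). Pdhb measured 7.02, 7.02, 7.05 and 7.22 in lactating Npr1-/- hearts, 6.95, 6.85, 6.96 and 6.85 in lactating Npr1+/+ hearts, 6.36, 6.32, 6.24 and 7.003 in nulliparous Npr1-/- hearts and 6.12, 6.18, 5.99 and 6.11 in nulliparous Npr1+/+ hearts. Lactating arrays lay above nulliparous arrays in each genotype, in Npr1-/- hearts only just above replicate 4. It rose by 0.60 ± 0.13 (adjusted p = 0.00309) in Npr1-/- hearts, 0.77 ± 0.07 without replicate 4, and 0.80 ± 0.13 (adjusted p = 0.000327) in Npr1+/+ hearts (limma).

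Dlat, the E2 acetyltransferase core, differed by 0.15 ± 0.08 (adjusted p = 0.149) in Npr1-/- hearts and rose by 0.40 ± 0.08 (adjusted p = 0.00142) in Npr1+/+ hearts (limma). PDH is shut off by kinases. Pdk1 rose in both genotypes, by 0.50 ± 0.12 (adjusted p = 0.00494) in Npr1-/- hearts and 0.34 ± 0.12 (adjusted p = 0.0303) in Npr1+/+ hearts (limma). Pdk2 differed by 0.01 and -0.02 in the same genotypes and was not called.

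The muscle and non-muscle forms of single steps changed by unequal amounts, a pattern noticed after the values were seen and so given without a test. In 7 pairs picked from the 35 genes (Slc2a1 with Slc2a4, Hk1 with Hk2, Pfkl and Pfkp each with Pfkm, Pgam1 with Pgam2, Eno1 with Eno3, Pygb with Pygm) the non-muscle form changed more upward than the muscle form in both genotypes. The non-muscle form had the dimmer probe in every pair but Hk1 (mean 6.31 over all arrays) with Hk2 (4.78). Slc2a1, for example, had a mean of 2.05 and Slc2a4 7.89, and Eno1 had 6.13 and Eno3 9.23. In those pairs form and signal level cannot be told apart, and the part of the signal level was not tested. The log2 ratio of non-muscle to muscle form was higher in lactation by 0.38 to 0.77 in Npr1-/- hearts and by 0.32 to 0.95 in Npr1+/+ hearts. Ratios on lactating arrays were all above those on nulliparous arrays in 4 of 7 pairs in Npr1-/- hearts and in 6 of 7 in Npr1+/+ hearts. The share of other gene pairs with such ratios was not computed, and the 2 phosphofructokinase pairs share Pfkm. All 7 non-muscle forms were called higher in both genotypes, and of the 6 muscle forms only Pygm was, in Npr1+/+ hearts. Of all tested genes 25.5% were called higher in Npr1-/- hearts and 31.8% in Npr1+/+ hearts. Slc2a4 and Eno3 were called lower in Npr1-/- hearts. All 7 non-muscle forms were also called higher in both genotypes with median centring, normexp and quantile normalization. The muscle forms were less steady: with median centring Pygm (0.32) in Npr1-/- hearts and Pfkm (0.38) in Npr1+/+ hearts were called higher too, with normexp Pfkm (0.29) in Npr1+/+ hearts, and with quantile normalization Hk2 (-0.25) and Slc2a4 (-0.23) in Npr1+/+ hearts were called lower.

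Other related genes did not all follow. Phka2, the liver form of the phosphorylase kinase alpha subunit, differed by -0.58 in Npr1-/- hearts and -0.43 in Npr1+/+ hearts, which is lower than the muscle form Phka1 in both. The neuronal enolase Eno2 differed by -0.16 in Npr1-/- hearts and -0.74 in Npr1+/+ hearts, below Eno3 in Npr1+/+ hearts. The brain aldolase Aldoc differed by 0.50 in Npr1-/- hearts and 0.98 in Npr1+/+ hearts, above Aldoa in both. Ldha, the muscle subunit, was above the heart subunit Ldhb in Npr1-/- hearts and below it in Npr1+/+ hearts. Phka2, Eno2 and Aldoc were chosen after their values were seen.

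**Figure D3:**
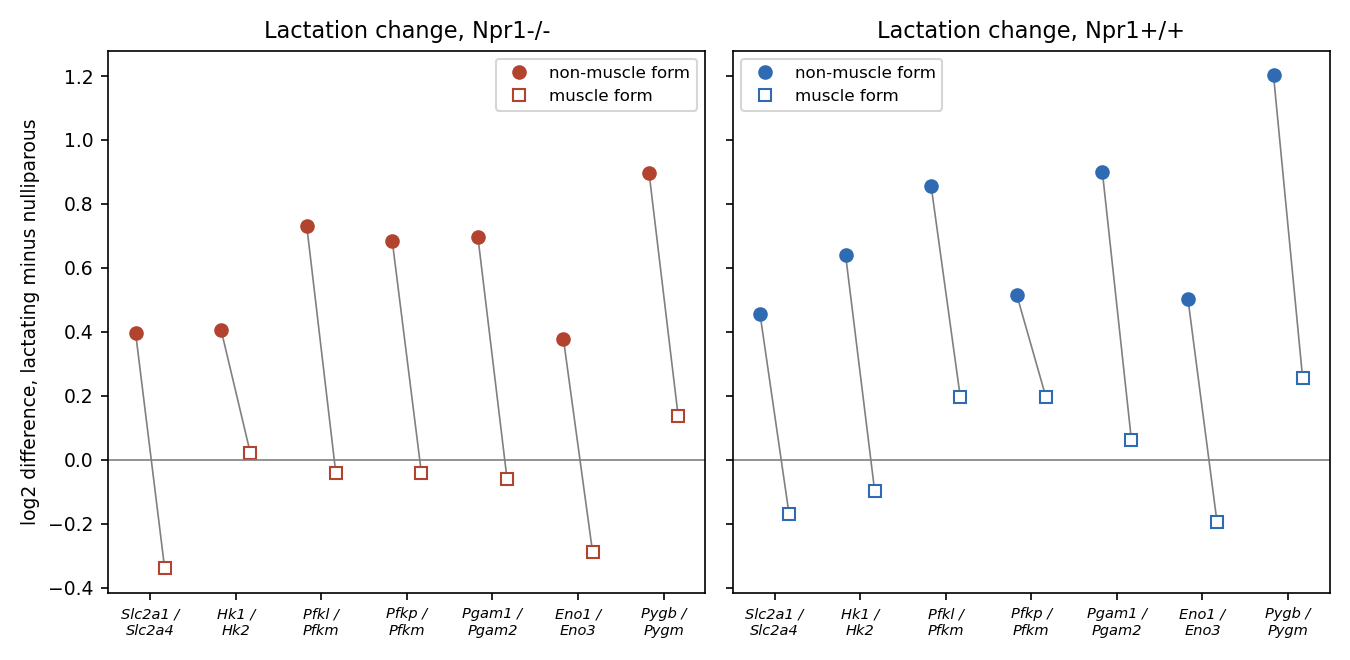
Log2 lactation difference of the non-muscle form (filled circle, left) and the muscle form (open square, right) of 7 pairs of genes for one step, in Npr1-/- hearts (red panel) and Npr1+/+ hearts (blue panel). In every pair of both panels the circle lies above the square.

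Markers of some other cells changed in lactation too. Of the 8 macrophage markers 7 rose in each genotype, all but Cd163, with Lyz2 at 2.49 in Npr1-/- hearts and 2.78 in Npr1+/+ hearts. Their summed scaled signal was 47.3 to 56.6 in lactating Npr1-/- hearts, 41.9 to 49.4 in lactating Npr1+/+ hearts, 19.6 to 38.8 in nulliparous Npr1-/- hearts and 21.7 to 25.7 in nulliparous Npr1+/+ hearts, with the 38.8 on replicate 4 and at most 25.6 on replicates 1 to 3. The cardiomyocyte list summed to 4722 to 5369 in lactating Npr1-/- hearts, 5412 to 5831 in lactating Npr1+/+ hearts, 5747 to 7453 in nulliparous Npr1-/- hearts and 5683 to 6928 in nulliparous Npr1+/+ hearts. Fibroblast and endothelial sums overlapped between the states. In Npr1-/- hearts the fibroblast sums were 277.3 to 341.9 lactating and 305.8 to 336.7 nulliparous, and in Npr1+/+ hearts 285.5 to 329.5 and 301.8 to 361. The endothelial sums were 86.54 to 96.34 and 72.87 to 103.2 in Npr1-/- hearts, and 77.15 to 92.35 and 77.68 to 87.62 in Npr1+/+ hearts. Most of the fibroblast sum was Dcn, at 7.66 to 8.26 on the log2 scale, so it does not show the changes of the dimmer markers. The median lactation difference over the 6 fibroblast markers was 0.76 in Npr1-/- hearts and 0.52 in Npr1+/+ hearts. Over the 5 endothelial markers it was 0.04 and -0.08.

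Of the 7 cardiomyocyte markers, Pln and Ryr2 rose in both genotypes, Myh6 and Myl2 fell in both, and Actc1, Tnni3 and Tnnt2 fell in Npr1-/- hearts. Of the other lists, 3 of 6 fibroblast, 1 of 5 endothelial, 3 of 4 red cell and 4 of 4 tested proliferation markers rose in Npr1-/- hearts, with 0 lower. In Npr1+/+ hearts 2 fibroblast, 1 endothelial, 2 red cell and 3 proliferation markers rose and 1 fibroblast marker fell. Top2a and Ccnb1 passed the filter only through the lactating groups, and each was well above background on 1 of 4 nulliparous Npr1-/- arrays. The proliferation marker Cdk1 was too dim to be tested. It measured -4.66, -6.04, -4.05 and -4.83 in lactating Npr1-/- hearts and -3.90, -4.11, -3.54 and -4.75 in nulliparous Npr1-/- hearts. The part of a changed cell mixture was not tested. The fast skeletal muscle list summed to at most 7.54 on any array, and of its 4 tested genes 1 fell in Npr1-/- hearts and 2 fell in Npr1+/+ hearts.

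Probes of one gene did not always give the same change. Of the 35 genes 24 had 1 probe and 11 had several. Gapdh, glyceraldehyde 3-phosphate dehydrogenase, had 7 probes, all well above background on 16 of 16 arrays. Its brightest probe differed by -0.19 ± 0.10 (adjusted p = 0.131) in Npr1-/- hearts and -0.02 ± 0.10 (adjusted p = 0.859) in Npr1+/+ hearts and was not called (limma), while the dimmest differed by 1.60 in Npr1-/- hearts and 1.89 in Npr1+/+ hearts. From the brightest to the dimmest the difference grew at every step in both genotypes.

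The dimmest Gapdh probe measured 6.07 to 6.35 on the lactating arrays, 5.80 on nulliparous Npr1-/- replicate 4 and 3.98 to 4.45 on the other 7 nulliparous arrays. Set against replicates 1 to 3 of its own group, replicate 4 differed by -0.29 at the brightest Gapdh probe and 1.56 at the dimmest. The unscaled 75th percentile, given above, was likewise higher on the lactating arrays and on replicate 4 than on the other 7. The part that these differences between arrays played in the changes of the 24 genes with 1 probe was not tested, and the positions of the probes in the transcript were not used here.

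**Figure D4:**
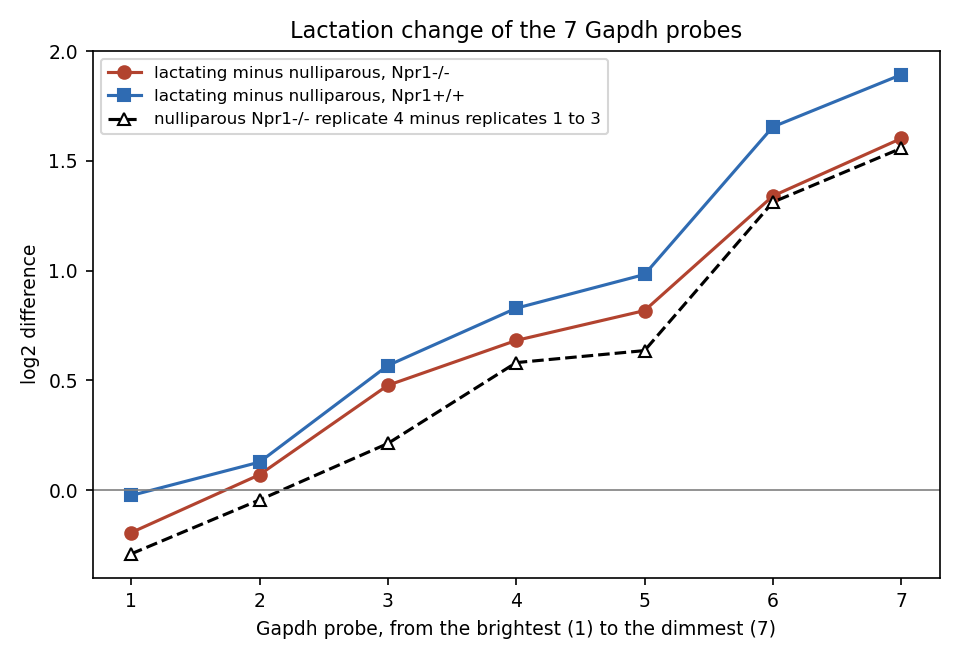
Log2 difference of the 7 Gapdh probes, ordered from the brightest (1) to the dimmest (7): lactating minus nulliparous in Npr1-/- (red circles) and Npr1+/+ (blue squares) hearts, and nulliparous Npr1-/- replicate 4 minus the mean of replicates 1 to 3 (open triangles). All 3 lines climb from left to right, between -0.29 and 1.89.

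Other genes with several probes gave the following. The other Tpi1 probe differed by 1.34 in Npr1-/- hearts and 1.85 in Npr1+/+ hearts, the other Hk1 probe by 1.30 and 1.40, the other Gys1 probe by 1.31 and 1.36, and the other Pdhb probe by 1.35 and 2.03, in the same order of genotypes. The other Ugp2 probe differed by 0.38 in Npr1-/- hearts and 0.26 in Npr1+/+ hearts, and the other Pfkp probe by 0.43 and 0.16. The 3 Gpi1 probes stayed between -0.04 and 0.08. The other Phkb probe went the opposite way, at -0.71 in Npr1-/- hearts and -0.80 in Npr1+/+ hearts, and the dimmest of 3 Ldha probes did so at -0.09 and -0.27, with the middle one at 1.10 and 1.18.

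Across all 3670 genes with several tested probes, the dimmest probe changed more upward than the brightest in 56.6% in Npr1-/- hearts and 54.3% in Npr1+/+ hearts. Among the 10 such genes of this list it did so in 6 in each genotype. The size of the gap was larger in this list. Dimmest minus brightest probe had a median of 0.405 in Npr1-/- hearts and 0.393 in Npr1+/+ hearts over the 10 genes. Over the 3670 genes the median was 0.067 and 0.054. Sequences nearly identical to Gapdh and Eno1 transcripts exist as processed pseudogenes, so those 2 signals may hold more than 1 transcript.

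Genotype was compared within each state, and 0 of 35 genes passed the test in either. Over all genes 0.199% were called in lactating hearts and 0.0996% in nulliparous hearts (limma). At an unadjusted p under 0.05, 3 of the 35 were higher and 2 lower in lactating Npr1-/- than in lactating Npr1+/+ hearts, and 3 were higher and 0 lower in nulliparous Npr1-/- than in nulliparous Npr1+/+ hearts. Over all 14063 genes the same counts were 596 higher and 689 lower in lactating hearts and 914 higher and 299 lower in nulliparous hearts. Array by array, 2 of the 35 lay wholly above and 1 wholly below in lactating hearts, where 3.23% of all genes lay above and 4.54% below. In nulliparous hearts 2 lay above and 0 below, where 3.24% of all genes lay above and 0.825% below.

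The 5 genes with the smallest unadjusted p in lactating hearts were Slc16a1, Pfkfb2, Pfkp, Pfkfb1 and Pkm. Slc16a1 measured -2.81, -2.83, -3.16 and -2.61 in lactating Npr1-/- hearts, -2.41, -2.15, -2.31 and -2.46 in lactating Npr1+/+ hearts, -2.63, -2.53, -2.36 and -2.78 in nulliparous Npr1-/- hearts and -2.73, -2.17, -2.53 and -2.32 in nulliparous Npr1+/+ hearts. All 4 lactating Npr1-/- arrays lay below all 4 lactating Npr1+/+ arrays, and the difference was -0.52 ± 0.14 (adjusted p = 0.203, limma). Pfkfb2 measured 2.51, 2.54, 2.57 and 2.45 in lactating Npr1-/- hearts, 2.10, 1.71, 2.38 and 2.19 in lactating Npr1+/+ hearts, 2.43, 2.56, 2.39 and 2.60 in nulliparous Npr1-/- hearts and 2.40, 2.22, 2.36 and 2.10 in nulliparous Npr1+/+ hearts. Every lactating Npr1-/- array lay above every lactating Npr1+/+ array, at a difference of 0.42 ± 0.12 (adjusted p = 0.224, limma).

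In the same comparison Pfkp differed by 0.45 ± 0.13 (adjusted p = 0.239), Pfkfb1 by -0.92 ± 0.31 (adjusted p = 0.336) and Pkm by 0.32 ± 0.12 (adjusted p = 0.403, limma). In nulliparous hearts Pdhb differed by 0.38 ± 0.13 (adjusted p = 0.456), Dlat by 0.20 ± 0.08 (adjusted p = 0.539) and Pfkp by 0.28 ± 0.13 (adjusted p = 0.576, limma). Pdhb and Dlat were the 2 genes whose nulliparous Npr1-/- arrays all lay above the nulliparous Npr1+/+ arrays. None of these differences was called. Of the 4 tested adipocyte markers 3 did differ in the lactating comparison. Cidec (-4.67), Adipoq (-3.69) and Plin1 (-2.20) were lower in lactating Npr1-/- than in lactating Npr1+/+ hearts. Fabp4 (-0.16, limma adjusted p = 0.832) was not called. In nulliparous hearts Cidec (-1.92, limma adjusted p = 0.0265) was lower in Npr1-/- than in Npr1+/+ hearts too. Adipoq (-1.78), Plin1 (-1.52) and Fabp4 (0.16) were not called there. Adipoq, Plin1 and Cidec were well above background on 1, 1 and 0 of the 4 lactating Npr1-/- arrays. On the 4 nulliparous Npr1-/- arrays they were so on 1, 2 and 3. They passed the filter only through the Npr1+/+ groups, where all 4 arrays were above background. The sizes of the Adipoq, Plin1 and Cidec differences therefore rest on signal near background and are bounds. The part of fat cells in the genotype values was not tested.

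**Figure D5:**
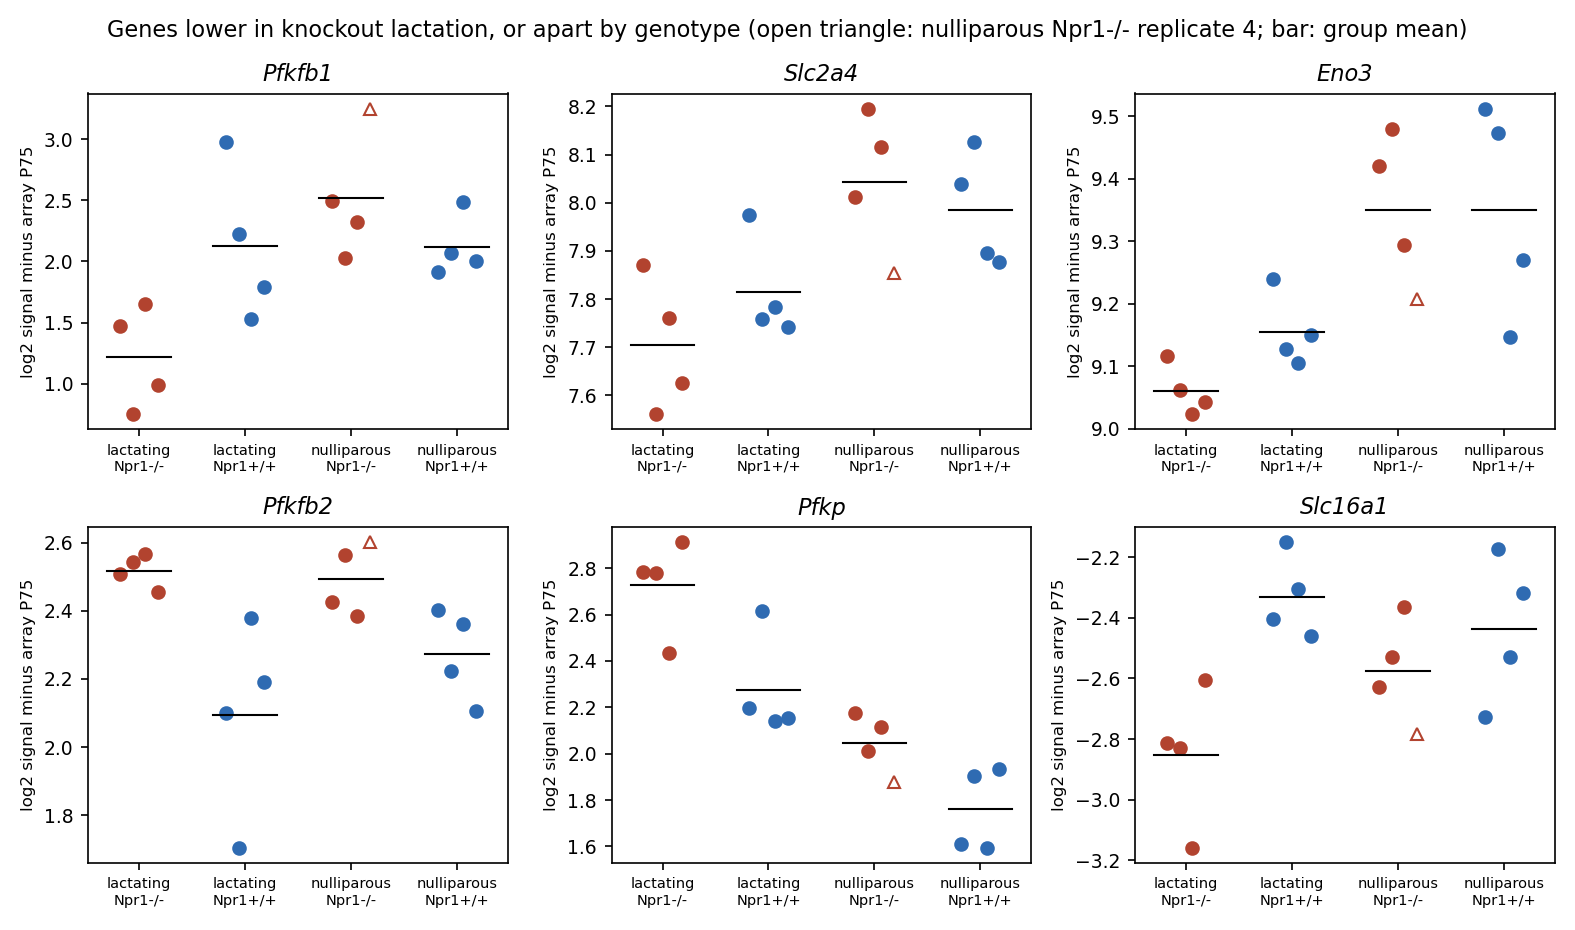
Scaled log2 signal (0 is the 75th percentile) on every array for Pfkfb1, Slc2a4, Eno3, Pfkfb2, Pfkp and Slc16a1, in lactating Npr1-/-, lactating Npr1+/+, nulliparous Npr1-/- and nulliparous Npr1+/+ hearts; bars are group means and the open triangle is nulliparous Npr1-/- replicate 4. The lactating Npr1-/- arrays lie lowest for Pfkfb1, Slc2a4, Eno3 and Slc16a1 by group mean, and apart from lactating Npr1+/+ for Pfkfb2 and Slc16a1.

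Whether lactation changed the 35 genes differently in the 2 genotypes was tested as an interaction, and 0 of 35 passed (0.0924% of all genes did, limma), with 0 higher and 2 lower at an unadjusted p under 0.05. Those were Pfkfb1, given above, and Ldhb at -0.34 ± 0.14 (adjusted p = 0.717). Over all 14063 genes 281 were higher and 616 lower at the same unadjusted threshold. The median difference of changes was -0.17 over the 35, with 28 below 0, and -0.06 over all genes. Without nulliparous Npr1-/- replicate 4 the median over the 35 was -0.06. The 15 and 19 rises in the 2 genotypes are therefore not shown to differ.

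The rest of the pathway was looked at through 47 further genes, of which 41 passed the filter. Slc2a12 had no probe, and Hkdc1, Pklr, Ldhc, Gys2 and Ppp1r3e were too dim. In Npr1-/- hearts 16 of 41 rose (39%) and 7 fell (17.1%), and in Npr1+/+ hearts 17 rose (41.5%) and 7 fell (17.1%), of which 20 were called the same way in both. Over all genes 25.5% were called higher and 18.6% lower in Npr1-/- hearts, and 31.8% and 18.5% in Npr1+/+ hearts, so the falls were near background. In both genotype comparisons and the interaction 0 of 41 were called by limma, with 2 higher and 1 lower in lactating hearts, 3 higher and 0 lower in nulliparous hearts, and 5 higher and 2 lower for the interaction at an unadjusted p under 0.05. The unadjusted counts over all 14063 genes are given above for these comparisons.

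The remaining subunits of the PDH complex, Dld and Pdhx, rose in both genotypes. Dld, the E3 dehydrogenase, measured 5.03, 5.32, 5.26 and 5.17 in lactating Npr1-/- hearts, 5.38, 5.20, 5.33 and 5.17 in lactating Npr1+/+ hearts, 3.99, 3.97, 3.28 and 5.14 in nulliparous Npr1-/- hearts and 3.79, 3.83, 3.68 and 3.53 in nulliparous Npr1+/+ hearts. All lactating arrays were above the nulliparous arrays except nulliparous Npr1-/- replicate 4, at 5.14 among them. Dld rose by 1.10 ± 0.26 (adjusted p = 0.00453) in Npr1-/- hearts, 1.45 ± 0.15 without replicate 4, and 1.56 ± 0.26 (adjusted p = 0.000359) in Npr1+/+ hearts (limma), and Pdhx, the E3-binding protein, by 0.36 ± 0.09 (adjusted p = 0.00733) and 0.48 ± 0.09 (adjusted p = 0.000879).

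Pdp2, a phosphatase that reverses the kinases, fell by 0.62 ± 0.15 in Npr1-/- hearts (adjusted p = 0.00426) and 1.12 ± 0.15 in Npr1+/+ hearts (limma adjusted p = 0.000102). The other phosphatase Pdp1 differed by 0.21 in Npr1-/- hearts and 0.27 in Npr1+/+ hearts and was not called. Both were chosen after their values were seen. The PDH kinases went apart. Pdk3 rose by 0.97 ± 0.20 (adjusted p = 0.00194) in Npr1-/- hearts and 0.93 ± 0.20 (adjusted p = 0.00156) in Npr1+/+ hearts (limma). Pdk4, the kinase induced by fasting and fatty acids, measured 5.47, 3.89, 5.21 and 4.01 in lactating Npr1-/- hearts, 6.17, 5.84, 4.84 and 5.13 in lactating Npr1+/+ hearts, 6.86, 7.41, 6.55 and 6.33 in nulliparous Npr1-/- hearts and 5.52, 5.71, 7.27 and 5.36 in nulliparous Npr1+/+ hearts. All lactating Npr1-/- arrays lay below all nulliparous Npr1-/- arrays, and the Npr1+/+ groups overlapped. Pdk4 fell by 2.14 ± 0.46 in Npr1-/- hearts (4.41-fold lower, limma adjusted p = 0.00264) and differed by -0.47 ± 0.46 (adjusted p = 0.419) in Npr1+/+ hearts, and the difference between those changes was -1.67 ± 0.65 (adjusted p = 0.703).

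Of the other genes with large changes, Bsg, the chaperone of the lactate transporters, rose by 1.22 ± 0.28 (adjusted p = 0.00357) in Npr1-/- hearts, 1.61 ± 0.12 without replicate 4, and 1.63 ± 0.28 (adjusted p = 0.000383) in Npr1+/+ hearts. Ppp1r3c, which brings protein phosphatase to glycogen, rose by 1.27 ± 0.18 (adjusted p = 0.000471) and 1.33 ± 0.18 (adjusted p = 0.000107) in the same genotypes (limma). Epm2a, the glycogen phosphatase laforin, fell by 0.80 ± 0.18 in Npr1-/- hearts (adjusted p = 0.00313) and 1.39 ± 0.18 in Npr1+/+ hearts (limma adjusted p = 9.37e-05). Phkg1, the muscle catalytic subunit of phosphorylase kinase, fell by 1.32 ± 0.27 in Npr1-/- hearts (adjusted p = 0.0021) and 1.29 ± 0.27 in Npr1+/+ hearts (limma adjusted p = 0.00148).

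Stbd1, a glycogen-binding protein, measured 1.67, 1.81, -2.56 and -2.30 in lactating Npr1-/- hearts, 1.26, -2.21, 1.94 and 2.27 in lactating Npr1+/+ hearts, 1.37, 1.29, -3.30 and 1.33 in nulliparous Npr1-/- hearts and -3.98, -2.93, -4.25 and -2.83 in nulliparous Npr1+/+ hearts. The values lay at 2 levels, near or above 1.26 and at or below -2.21, and the lactating Npr1-/-, lactating Npr1+/+ and nulliparous Npr1-/- groups each held both, while the nulliparous Npr1+/+ arrays held the low one. It was well above background on 15 of 16 arrays. The difference was -0.52 ± 1.29 (adjusted p = 0.767) in Npr1-/- hearts and 4.31 ± 1.29 (adjusted p = 0.0123) in Npr1+/+ hearts (limma).

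Each slide held 2 arrays of every group, and each group kept the same column on both slides, so column and group cannot be told apart. All 19 genes called in Npr1-/- hearts and all 19 called in Npr1+/+ hearts had the same sign on both slides. They were called on the arrays of both slides together, which favours a shared sign, so this is no separate check. Within slide 1 alone 16 genes were called in Npr1-/- hearts and 17 in Npr1+/+ hearts, and within slide 2 alone, which holds nulliparous Npr1-/- replicate 4, 0 and 0 (limma). In slide 2, 5 were higher and 1 lower in Npr1-/- hearts and 12 higher and 0 lower in Npr1+/+ hearts at an unadjusted p under 0.05. Of all 14063 genes, slide 1 alone gave 3552 called higher and 2616 lower in Npr1-/- hearts, and 3341 and 2217 in Npr1+/+ hearts. Slide 2 alone gave 0 and 0 in Npr1-/- hearts, and 67 and 19 in Npr1+/+ hearts. Pgk1 differed by 1.03 on slide 1 and 0.82 on slide 2 in Npr1-/- hearts and by 1.15 and 1.22 in Npr1+/+ hearts. Another scaling moved the balance of calls. Centring each array on its median, which put the median difference of all genes at 0.24 in place of 0.06 in Npr1-/- hearts and at 0.28 in place of 0.10 in Npr1+/+ hearts, gave 18 higher and 1 lower in Npr1-/- hearts, where normexp gave 16 and 2. Quantile normalization gave 20 higher and 3 lower in Npr1+/+ hearts. Of all 14063 genes, median centring gave 5306 higher and 1395 lower in Npr1-/- hearts, and normexp gave 3655 and 3093. For quantile normalization the all-gene counts were 4218 higher and 2969 lower in Npr1+/+ hearts.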

How the data were processed

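Cy3-labelled cRNA from 200 ng of total RNA per mouse was hybridised to one-colour Agilent arrays, and Agilent Feature Extraction 10.7.3.1 turned the scans into values per spot, per the submitters' processing notes. The deposited scanner values are processed intensity per spot, background-subtracted within the array and left unscaled between arrays by the authors, per the file headers. A second deposited table holds log2 values, and the sources used here do not give its scale or centring. Compared with the scanner values over 24445 probes, each column correlated at r = 1 with scaled log2 signal (below) less the probe's mean over the nulliparous Npr1+/+ arrays, so scale, centring and direction were settled. Its column medians ran from -0.38 to 0.03 on the log2 scale, and it served as an alternative.

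Control spots were left out, and the 59305 other spots were averaged into 55681 probes, with outlier spots left out array by array. Probes were named through their accession in the RefSeq gene table of GRCm38.p6 (28026 of 55681 named). The array files name an older build, so no probe coordinates are given. Values were log2 of the probe's signal over the 75th percentile of all probes on its array. Genes entered the fit when every array of some group had them well above background. limma 3.58.1 (lmFit, eBayes) in R 4.3.3 fitted 4 group means to 16 arrays, and code was tested on simulated data. Figures were drawn with matplotlib 3.10.9. The number of arrays limits the precision. The series text calls the mice independent.

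The genes and lists were chosen with earlier results of these data known. The rule for named genes took all 35 members, the up to 5 called further pathway genes with the largest difference in each contrast, and the direct partners Pdhx, Dld, Phkg1, Pdk3 and Pdk4. A gene that the rule took is not reported here. The marker lists were cardiomyocyte, fast skeletal muscle, macrophage, fibroblast, endothelial, adipocyte, red cell and proliferation. Alternatives were normexp background (offset 50, on the median spot signal), quantile normalization, median centring, the mean over probes, a filter dropped or extended to 16 arrays, only the groups compared, trended robust variance, array weights, slide or replicate number as a block, each slide alone, leaving out each array, and the authors' table. The dimmest probe was added after seeing the data.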

Additional observations from a re-analysis of the deposited data

Results flagged for a closer look

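With 4 arrays in a group, an array was picked out when its gap to the nearest other array took up more of the group's whole range than Dixon's critical value allows. Of 140 combinations of gene and group 8 met this, where chance gives about 1 in 20. In nulliparous Npr1-/- hearts, replicate 4 stood above the other 3 for Eno1 at 6.14 (next 5.87) and for Pdhb at 7.003 (next 6.36). In lactating Npr1-/- hearts, replicate 3 stood above the others for Pfkm at 7.75 (next 7.69). In lactating Npr1+/+ hearts, replicate 1 stood above the others for Ldhb at 9.25 and for Pygb at 4.89, and replicate 2 for Pfkp at 2.61. In nulliparous Npr1+/+ hearts, replicate 3 stood below the others for Pgam2 at 7.95 and replicate 4 for Pygb at 3.13.

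For Ldhb all 4 lactating Npr1-/- arrays lay below the mean of the lactating Npr1+/+ arrays, while all 4 nulliparous Npr1-/- arrays lay above the mean of the nulliparous Npr1+/+ arrays. The difference between those changes was -0.34 (limma adjusted p = 0.717) and did not pass the test.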

How the results depend on the processing

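The counts of called members stayed within 1.5 times of 19 in lactating against nulliparous hearts of both genotypes under every alternative but slide 2 alone. Within slide 2 alone, with 2 arrays a group, 0 members were called in Npr1-/- hearts and 0 in Npr1+/+ hearts, and of the further pathway genes 0 and 1. Leaving out each array in turn gave 15 to 22 called members in Npr1-/- hearts and 17 to 20 in Npr1+/+ hearts. The genotype comparisons and the interaction gave 0 called members under all alternatives run, the interaction having no value where only the groups compared were fitted. With array weights 2 further pathway genes were called higher in lactating Npr1-/- than in lactating Npr1+/+ hearts. Replicate numbers were not treated as pairs in the main fit, and correlations of same-numbered arrays ran from -0.05 to 0.18. The replicate number also sets the slide and the row on it, so these correlations cannot decide whether it pairs the samples. With the replicate number as a block 16 members were higher and 5 lower in Npr1-/- hearts and 19 higher and 1 lower in Npr1+/+ hearts.

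Counting only values called as reported or under the alternative, directions turned for 4 genes, of which Aldoa and Gapdh were not called as reported. Small uncalled values changed sign as well, such as Gpi1 in Npr1-/- hearts, which ran from -0.12 to 0.14. With quantile normalization Aldoa became 0.27 in Npr1-/- and 0.32 in Npr1+/+ hearts and Gapdh 0.23 and 0.36. With the mean of a gene's probes Gapdh became 0.69 in Npr1-/- and 0.86 in Npr1+/+ hearts and Phkb -0.14 and -0.12. With the dimmest probe, chosen after seeing the data, Gapdh became 1.60 in Npr1-/- and 1.89 in Npr1+/+ hearts, Phkb -0.71 and -0.80, and Ldha -0.0864 and -0.274. The cause was not tested. Over 29 alternatives other than single slides, the call ended most often for Phka1 in Npr1-/- hearts (16), Phkb in Npr1-/- hearts (8), Pygm in Npr1+/+ hearts (8), Pygb in Npr1-/- hearts (6) and Pdk1 in Npr1+/+ hearts (6).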

Other observations

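Some further genes of the pathway, none of which is one of the 35, gave values of their own. Both subunits of the mitochondrial pyruvate carrier rose: Mpc1 by 0.72 ± 0.19 (adjusted p = 0.00732) in Npr1-/- hearts and 1.08 ± 0.19 (adjusted p = 0.000433) in Npr1+/+ hearts, and Mpc2 by 0.41 ± 0.12 (adjusted p = 0.0129) and 0.69 ± 0.12 (adjusted p = 0.000388, limma). Without nulliparous Npr1-/- replicate 4 the Npr1-/- rises were 0.96 ± 0.11 for Mpc1 and 0.54 ± 0.09 for Mpc2. G6pdx, the first enzyme of the pentose phosphate pathway, rose by 0.39 ± 0.09 (adjusted p = 0.00338) in Npr1-/- hearts and 0.49 ± 0.09 (adjusted p = 0.000576) in Npr1+/+ hearts. Fbp2, the muscle fructose bisphosphatase, which runs the phosphofructokinase step backward, fell by 1.08 ± 0.23 in Npr1-/- hearts (adjusted p = 0.00234) and 1.07 ± 0.23 in Npr1+/+ hearts (limma adjusted p = 0.00161). Phka2, the liver alpha subunit of phosphorylase kinase, fell by 0.58 ± 0.11 in Npr1-/- hearts and 0.43 ± 0.11 in Npr1+/+ hearts (limma adjusted p = 0.00122 and 0.00399). These 5 genes were chosen after their values were seen.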
